A study of Mus musculus with 3 samples.

Results

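Twist1 occupancy was examined at 42 genes of the TGF-beta and BMP pathways. The 3 deposited peak lists hold 14619 gene names, and 39 of the 42 genes are among them. The 42 genes are 13 ligands, 13 receptors and co-receptors, 8 Smads, 5 extracellular regulators, 2 latent TGF-beta binding proteins and the kinase adaptor Tab2. A peak was assigned to a gene when the list named that gene on either side of the peak at a distance of 0 to 50 Kb, so that tags and fold enrichment played no part in the choice. By this rule 109 of 67468 peaks belonged to the 42 genes, with 80 in limb buds, 19 in ECCs and 10 in PNST cells.

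ChIP with 5 µg of anti-Twist1 (Sigma T6451) followed by sequencing was carried out on 1 sample for each tissue. The ECC sample was atrioventricular canal endocardial cushion tissue, the precursor of heart valves, from wild-type FVB/N mouse embryos at E12.5, and the limb sample was forelimb bud tissue of the same strain at E10.5. The third sample was a culture of mouse peripheral nerve sheath tumor (PNST) cells. Embryonic tissue of several litters, or cells of more than 1 culture plate, was pooled before sequencing. There were no replicates, so no difference between tissues could be set against variation between samples of 1 tissue and no test between tissues was made. Tissue identity could not be checked from peak lists, which hold no expression values.

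TGF-beta and BMP ligands are secreted dimers that bring type II and type I receptor kinases together at the cell surface. The type I receptor then phosphorylates receptor-regulated Smads, which enter the nucleus with Smad4, while Smad6 and Smad7 limit the signal. Both arms act in the endocardial cushions, where they drive endothelial cells into mesenchyme, and BMP signaling patterns the digits and cartilage of the limb bud. Twist1 is a basic helix-loop-helix factor that binds E-boxes, sites of 6 bases written CANNTG.

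The sequences of the regions that overlapped between tissues, and of the peaks at Tgfb2, are shown first since the results turn on them. They were read from mm9, the genome build of the lists, on the plus strand. Capitals mark each E-box in the Tab2, Twsg1 and Tgfb2 peaks, the longest run of a base in the Bmp5 intron 1 and Bmp6 peaks, and every copy of the most frequent word of 8 bases in the Bmp10 region. The upstream Bmp5 peak has no E-box and no capitals.
Bmp5 intron 1, PNST peak, chr9:75656088-75656285, plus strand: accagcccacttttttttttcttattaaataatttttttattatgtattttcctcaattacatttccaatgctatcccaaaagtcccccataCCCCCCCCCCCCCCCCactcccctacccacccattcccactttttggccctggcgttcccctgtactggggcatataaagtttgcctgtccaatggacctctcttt
Bmp5 upstream, ECC peak, chr9:75574368-75574545, plus strand: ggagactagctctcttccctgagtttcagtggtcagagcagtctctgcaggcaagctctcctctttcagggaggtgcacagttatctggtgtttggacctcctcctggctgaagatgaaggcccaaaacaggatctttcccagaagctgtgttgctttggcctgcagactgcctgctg
Bmp6 intron 2, PNST peak, chr13:38473286-38473423, plus strand: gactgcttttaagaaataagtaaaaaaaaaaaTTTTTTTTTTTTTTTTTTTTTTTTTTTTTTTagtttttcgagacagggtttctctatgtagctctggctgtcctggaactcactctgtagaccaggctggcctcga
Bmp10 downstream, 300 bp around the ECC summit, chr6:87407587-87407886, plus strand: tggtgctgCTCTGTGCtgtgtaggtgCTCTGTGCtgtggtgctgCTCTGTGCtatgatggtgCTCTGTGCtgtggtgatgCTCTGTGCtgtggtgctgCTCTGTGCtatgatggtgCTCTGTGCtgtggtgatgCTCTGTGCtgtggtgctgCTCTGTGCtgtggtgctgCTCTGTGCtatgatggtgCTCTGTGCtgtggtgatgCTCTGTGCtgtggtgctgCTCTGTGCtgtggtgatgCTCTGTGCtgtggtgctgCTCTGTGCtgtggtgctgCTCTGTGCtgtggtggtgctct
Tab2 downstream, ECC peak, chr10:7622429-7622697, plus strand: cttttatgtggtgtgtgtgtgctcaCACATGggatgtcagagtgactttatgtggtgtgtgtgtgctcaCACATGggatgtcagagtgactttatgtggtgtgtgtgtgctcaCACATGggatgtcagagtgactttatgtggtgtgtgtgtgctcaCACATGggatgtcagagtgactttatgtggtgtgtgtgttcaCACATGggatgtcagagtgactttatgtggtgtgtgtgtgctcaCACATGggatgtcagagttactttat
Twsg1 downstream, ECC peak, chr17:66236869-66237044, plus strand: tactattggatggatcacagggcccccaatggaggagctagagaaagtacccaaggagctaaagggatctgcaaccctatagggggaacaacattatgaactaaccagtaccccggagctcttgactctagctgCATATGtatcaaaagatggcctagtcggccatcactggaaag
Tgfb2 intron 1, ECC peak, chr1:188483559-188483703, plus strand: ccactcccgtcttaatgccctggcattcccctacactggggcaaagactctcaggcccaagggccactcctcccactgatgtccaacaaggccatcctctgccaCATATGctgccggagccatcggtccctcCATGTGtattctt
Tgfb2 downstream, limb bud peak, chr1:188421458-188421741, plus strand: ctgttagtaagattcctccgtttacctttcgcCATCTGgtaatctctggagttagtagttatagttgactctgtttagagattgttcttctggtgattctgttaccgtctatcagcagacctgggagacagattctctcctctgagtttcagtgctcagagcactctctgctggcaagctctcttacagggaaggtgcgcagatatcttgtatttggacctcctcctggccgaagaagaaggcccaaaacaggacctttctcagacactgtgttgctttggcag
Tgfb2 downstream, PNST peak, chr1:188419126-188419363, plus strand: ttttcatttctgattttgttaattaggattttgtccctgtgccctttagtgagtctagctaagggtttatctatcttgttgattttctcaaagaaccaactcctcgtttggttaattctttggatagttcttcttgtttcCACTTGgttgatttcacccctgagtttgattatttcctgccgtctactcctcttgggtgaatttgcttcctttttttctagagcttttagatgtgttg
The Bmp5 intron 1 peak contained no E-box and a run of 16 C bases, and the Bmp6 peak contained no E-box and a run of 31 T bases. In the 300 bp around the Bmp10 summit the word CTCTGTGC occurred 16 times, without an E-box. The Tab2 peak was a tandem repeat with a period of 44 bp that carried the E-box CACATG 6 times. A single E-box each was present in the Twsg1 peak (CATATG) and in the limb bud (CATCTG) and PNST (CACTTG) peaks at Tgfb2, and 2 in the ECC peak at Tgfb2 (CATATG and CATGTG).

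The depth of the samples differed and sets what each list can show. After removal of duplicates the list headers gave 3149934 tags (mapped reads) for the ECC sample, 14893391 for limb buds and 11823220 for the tumor cells. The weakest peaks listed had 5, 8 and 7 tags, in the same order, which is 1.59, 0.537 and 0.592 tags per 1000000 filtered tags, the unit of all scaled tags given here. The deposited limb bud list holds more tags and peaks than the text of the study describes. It has 48965 peaks, beside 10965 for ECCs and 7538 for PNST cells, whereas that text reports fewer limb bud peaks than ECC peaks. The deposited ECC and PNST lists also hold more peaks than that text reports, by a far smaller margin. Every limb bud count given here rests on the deposited list. A limb bud peak would need 23.6 tags to reach the ECC minimum at the ECC depth. Absence from a list therefore means that no peak was detectable at that depth.

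Peaks were listed within 50 Kb of 34 of the 42 genes in limb buds (81.0%), 11 in ECCs (26.2%) and 10 in PNST cells (23.8%). This order of limb buds and ECCs turned around with the threshold. At a fold enrichment of at least 20 there were 7 genes in limb buds and 10 in ECCs. The median fold enrichment of all peaks within 50 Kb of a gene was 14.5 in limb buds and 27.6 in ECCs. At the ECC depth and minimum 2 genes remained in limb buds and 11 in ECCs. Every ECC peak meets that minimum by definition, so the ECC count could not fall. Of all limb bud peaks within 50 Kb of a gene, 5.08% met it. The shares of all genes at these thresholds were not counted. Without these thresholds a limb bud peak was listed within 50 Kb of 53.9% of all 22238 protein-coding genes of the GENCODE vM1 annotation. The shares were 22.5% in ECCs and 14.6% in PNST cells. The pathway genes are longer, with a median span of 55.9 Kb against 15.4 Kb for all protein-coding genes. Among protein-coding genes with a span between the quartiles of the pathway genes (18 to 92.2 Kb), 65.4% had a limb bud peak, 25.9% an ECC peak and 16.2% a PNST peak. The 20 pathway genes in that span range had 18, 5 and 4 genes with a peak, respectively (90%, 25% and 20%). When only names that occur in any list were counted, the shares were 87.2% of 39 pathway genes in limb buds beside 87.5% of all names, 28.2% beside 36.3% in ECCs, and 25.6% beside 23.6% in PNST cells. This last count covers only genes already named beside a peak in some list, most of which are limb bud peaks, and so stands near its upper limit in limb buds. The pathway genes were thus above the background in limb buds by both counts over annotated genes. In PNST cells they were above it over all annotated genes (23.8% beside 14.6%). Among genes of that span range they were near it in PNST cells (20% beside 16.2%). By the last count they were level with it in limb buds and near it in PNST cells. In ECCs they were near the background by the counts over annotated genes and below it by the last count. None of these differences was tested.

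Peaks in all 3 tissues were listed for 5 genes (background 6.56% of protein-coding genes), which were Tgfb2, Tgfbr3, Bmp5, Ltbp1 and Twsg1. A further 5 genes had peaks in ECCs and limb buds (Bmp10, Bmpr1b, Acvr2a, Smad5 and Tab2), 3 in limb buds and PNST cells (Bmp6, Acvr1c and Smad2), and Acvr1 alone in ECCs and PNST cells. Peaks in limb buds only were seen for 21 genes, and in PNST cells only for Fst. The 21 genes had 43 peaks of 8 to 18 tags with fold enrichment of 9.38 to 33.9. Of these, 11 genes had 1 peak (Tgfb1, Tgfb3, Bmp2, Bmp7, Bmpr1a, Acvr2b, Acvrl1, Smad1, Smad9, Nog and Ltbp2) and 6 had 2 (Tgfbr2, Smad6, Smad7, Inhba, Gdf6 and Chrd). Tgfbr1 and Smad4 had 3 peaks, Bmper 4 and Bmpr2 10. No gene had peaks in ECCs only. The shares of all protein-coding genes with peaks in just 1 or 2 tissues were not counted. These counts are therefore not read as particular to the pathway. The 6 genes without a peak in any tissue (background 41.3%) were Bmp4, Acvr1b, Eng, Smad3, Inhbb and Gdf5, of which Acvr1b, Eng and Gdf5 were named in no list at any distance. By distance to annotated start sites Eng had a peak within 50 Kb in ECCs and limb buds, so its absence rests on the names in the lists. By the same distances Bmp10 and Bmpr1b joined the genes with peaks in all 3 tissues and Twsg1 left them. Genes with peaks in more tissues had longer spans, with medians of 21.6, 38.4, 89.2 and 125 Kb for peaks in 0, 1, 2 and 3 tissues.

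**Figure D1:**
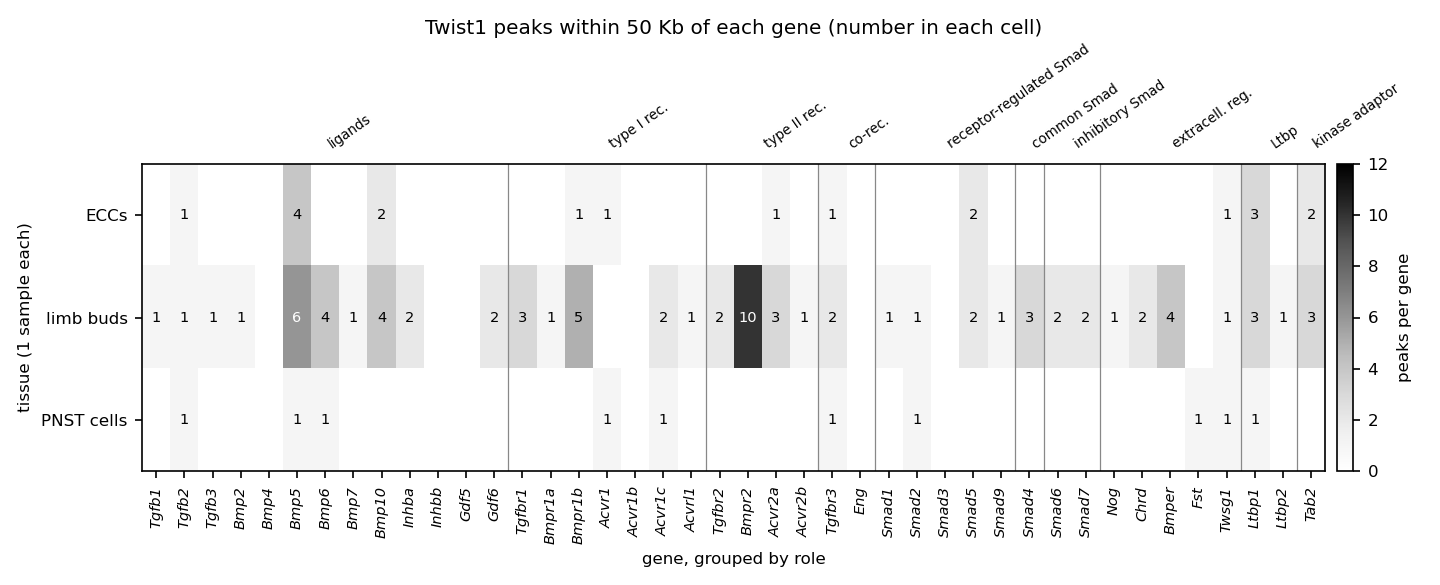
Number of Twist1 peaks within 50 Kb of each of the 42 genes (columns, grouped by role) in ECCs, limb buds and PNST cells (rows, 1 sample each), with darker cells for more peaks and empty cells for none. Limb buds fill 34 columns, with 10 peaks at Bmpr2 and 6 at Bmp5, while no gene has more than 4 peaks in ECCs or 1 in PNST cells.

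Among the ligands, peaks were listed for 10 of 13 genes in limb buds and for 3 each in ECCs and PNST cells. Beside this and the counts of other roles below stand the shares over all protein-coding genes. Those were 53.9% in limb buds, 22.5% in ECCs and 14.6% in PNST cells. Bmp5, a BMP ligand needed for the normal shape of several skeletal elements, had 6 peaks in limb buds, 4 in ECCs and 1 in PNST cells. Of all protein-coding genes, 0.648% had at least 4 ECC peaks and 11.2% at least 4 limb bud peaks. Of the 42 genes, 1 (2.38%) had at least 4 ECC peaks and 6 (14.3%) at least 4 limb bud peaks. These shares were not matched for gene span. In intron 1 of Bmp5, 33.0 Kb from the 5′ end of the gene, the peaks of all 3 tissues overlapped (chr9:75656088-75656293). The ECC peak held 7 tags, the limb bud peak 23 and the PNST peak 20. These were 2.22, 1.54 and 1.69 scaled tags, with 95% exact Poisson intervals of 0.893 to 4.58, 0.979 to 2.32 and 1.03 to 2.61, which overlap. Such intervals cover counting error only. Fold enrichment, which relates the summit to a local background from the peak caller, was 65.8, 54.8 and 54.6, in the same order. These were the highest values among the peaks of the 42 genes in each tissue. This was also the only region of the 42 genes shared by all 3 tissues at the 5% minimum overlap used in the study. It made up 1 of 10 PNST peaks (10.0%), beside 9.53% of all PNST peaks within 50 Kb of a gene.

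The other Bmp5 peaks had lower fold enrichment, from 12.4 to 24.4. About 48.7 Kb upstream of the gene, an ECC peak of 5 tags (1.59 scaled, fold enrichment 18.3) overlapped a limb bud peak of 8 tags (0.537 scaled, 12.4), and both counts were the fewest listed in their tissue. Beyond the 3′ end, an ECC peak of 5 tags and a limb bud peak of 15 tags touched over 3 bp, under the 5% minimum. The remaining Bmp5 peaks, 1 in ECCs and 3 in limb buds, held 7 to 12 tags.

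**Figure D2:**
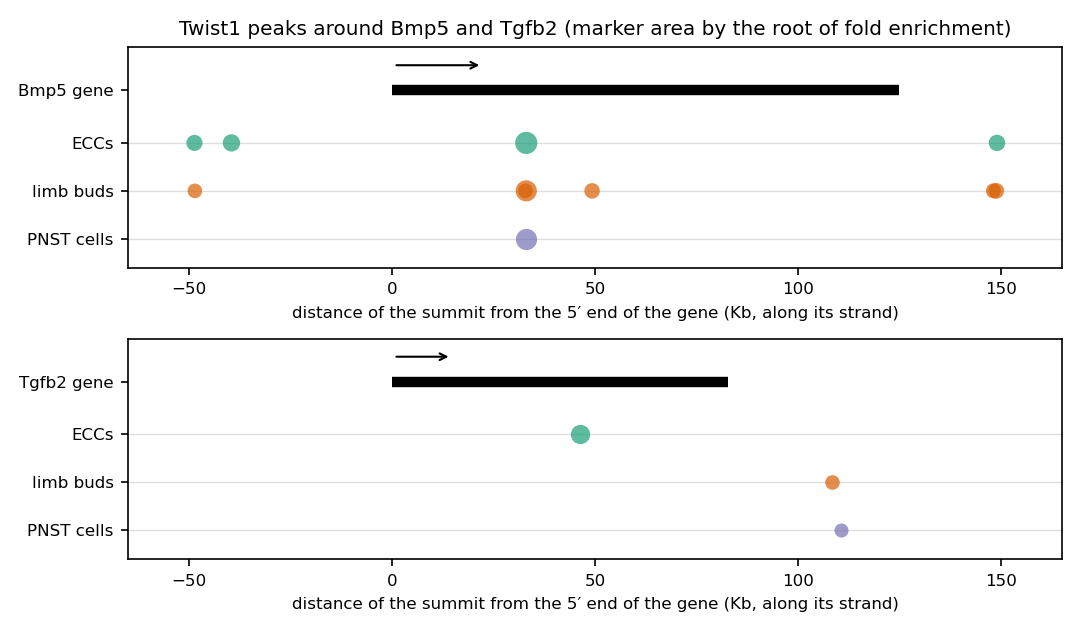
Summits of the Twist1 peaks at Bmp5 (upper panel) and Tgfb2 (lower panel) against their distance in Kb from the 5′ end of the gene, along its strand, with a row for each tissue. The black bar is the gene, the arrow its direction, and the marker area grows with the square root of fold enrichment. The peaks of the 3 tissues coincide at 33.0 Kb in Bmp5, whereas at Tgfb2 the ECC peak lies inside the gene and the other peaks beyond its 3′ end.

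Bmp10, the BMP ligand of the trabecular heart muscle, carried the most tags of the 42 genes. Its region 28.7 Kb downstream of the gene start (chr6:87407235-87408081) held 37 tags in ECCs and 99 in limb buds, and was in no PNST peak. These were 11.7 scaled tags (8.27 to 16.2) in ECCs and 6.65 (5.40 to 8.09) in limb buds, with fold enrichment of 21.0 and 14.8. The counting intervals of these 2 libraries did not overlap, over called regions of unequal length (641 bp in ECCs and 847 bp in limb buds), which says nothing of variation between samples. Another gene was named nearer to all Bmp10 peaks, and Bmp10 had no peak in any tissue when only the nearer side was used. The other Bmp10 peaks, 1 in ECCs and 3 in limb buds, lay upstream with 7 tags and 19 to 26 tags, and none of them overlapped.

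Tgfb2, the TGF-beta ligand needed for cushion and valve development, had 1 peak in each tissue and none of the peaks overlapped. In ECCs the peak was in intron 1, 46.2 Kb from the 5′ end, with 5 tags (1.59 scaled) and a fold enrichment of 37.6. In limb buds it held 17 tags (1.14 scaled, fold enrichment 12.4) and in PNST cells 13 tags (1.10 scaled, fold enrichment 10.6), both beyond the 3′ end. Both of these peaks lay wholly in repeated sequence, as described below. The limb bud and PNST peaks were 2095 bp apart, and the ECC peak was 61.8 Kb from the limb bud peak (61818 bp). The distance of 27939 bp that the list gives for the PNST peak is measured to the 3′ end of Tgfb2, which is on the minus strand. The summit of this peak was 110625 bp from the 5′ end. By ChIP-qPCR in biological triplicate, the study reported Twist1 binding at a Tgfb2 region in PNST cells and none in the other tissues. Which of these peaks, if any, that region covers is not given here.

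Bmp6, a BMP ligand also known for its role in iron balance, had 4 limb bud peaks and 1 PNST peak. In intron 2 (chr13:38473286-38473431) the limb bud peak of 12 tags (0.806 scaled, fold enrichment 18.3) overlapped the PNST peak of 8 tags (0.677 scaled, 21.2). The Poisson intervals of these values overlap. The ligands with peaks in limb buds only were Tgfb1, Tgfb3, Bmp2, Bmp7, Inhba and Gdf6, with 1 or 2 peaks each.

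The receptors had limb bud peaks at 10 of 13 genes, ECC peaks at 4 and PNST peaks at 3. Bmpr2, the type II receptor of BMPs, had 10 limb bud peaks and none in the other lists. It was the gene with the most limb bud peaks of the 42. As the only 1 of the 42 with 10 or more it made up 2.38%, beside 0.859% of all protein-coding genes. These shares were not matched for span, and Bmpr2 spans 106 Kb against a median of 15.4 Kb for all protein-coding genes. Each of the 10 peaks held 8 to 11 tags, and 6 lay upstream of the gene and 4 in its intron 1. The nearest ECC peak to any of them was 193242 bp away. None of the 10 would reach the ECC minimum at the ECC depth, so the absence in ECCs cannot be told apart from low depth.

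Bmpr1b, the type I BMP receptor of cartilage condensations, had 5 limb bud peaks of 8 to 12 tags and 1 ECC peak of 5 tags with a fold enrichment of 37.6, all in its introns. The nearest limb bud peak lay 38624 bp from the ECC peak. Tgfbr3, the betaglycan co-receptor that presents TGF-beta2 to the signaling receptors, had peaks in all 3 tissues without an overlap. In its intron 2 an ECC peak of 5 tags lay 78 bp from a limb bud peak of 10 tags, with another limb bud peak of 16 tags beside it, while the PNST peak of 8 tags was in intron 4. Acvr1, a type I receptor active in cushion formation, was the only gene with peaks in ECCs (5 tags) and PNST cells (7 tags) but not limb buds, and these peaks were 76795 bp apart. Type II receptors had no PNST peak, with 4 of 4 genes occupied in limb buds and only Acvr2a in ECCs. Over all protein-coding genes the shares were 14.6% in PNST cells, 53.9% in limb buds and 22.5% in ECCs. With only 4 genes these counts are not read as a trait of this class.

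The Smads had limb bud peaks at 7 of 8 genes, and an ECC and a PNST peak at 1 gene each. Smad5, which carries the BMP signal, had 2 peaks in ECCs (10 and 6 tags) and 2 in limb buds (18 and 38 tags). In intron 1 the ECC peak of 10 tags (3.17 scaled) and the limb bud peak of 18 tags (1.21 scaled) shared 9 bp, which is under the 5% minimum. The limb bud peak of 38 tags (2.55 scaled, fold enrichment 7.28) had the most tags of any limb bud peak of the 42 genes after the Bmp10 region. Smad7, an inhibitory Smad, had a limb bud peak of 17 tags with a fold enrichment of 33.9 beyond its 3′ end. Smad2, which carries the TGF-beta signal, had 1 peak each in limb buds (9 tags) and PNST cells (7 tags), on opposite sides of the gene.

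Of the extracellular regulators, 4 of 5 had a limb bud peak, 2 a PNST peak and 1 an ECC peak. Twsg1, a secreted modulator of BMP binding, had 1 peak in each tissue beyond its 3′ end. The ECC peak of 5 tags (1.59 scaled, fold enrichment 23.8) overlapped the limb bud peak of 10 tags (0.671 scaled, 23.5) at chr17:66236869-66237044, and the PNST peak of 9 tags was 22814 bp from the ECC peak. With the nearer side only, Twsg1 kept its PNST peak and lost the overlapping ones. Fst, the activin antagonist follistatin, had a single peak of 10 tags in PNST cells, which was lost with the nearer side only. Nog, Chrd and Bmper, which bind BMPs outside the cell, had 1, 2 and 4 peaks in limb buds only.

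Ltbp1, which tethers latent TGF-beta to the matrix, had 3 ECC peaks (6 to 11 tags), 3 limb bud peaks (8 to 21 tags) and 1 PNST peak (9 tags), and no overlap between tissues. All 3 ECC peaks at Ltbp1 lay in tandem repeats. Tab2, the adaptor that links receptors to the kinase TAK1, had 2 ECC peaks and 3 limb bud peaks. At chr10:7622429-7622697, beyond the 3′ end, the ECC peak held 12 tags and the limb bud peak 14. These were 3.81 scaled tags (1.97 to 6.65) and 0.940 (0.514 to 1.58), with fold enrichment of 38.1 and 13.1. The counting intervals did not overlap, again over regions of unequal length (269 bp in ECCs and 184 bp in limb buds) in 1 library each.

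**Figure D3:**
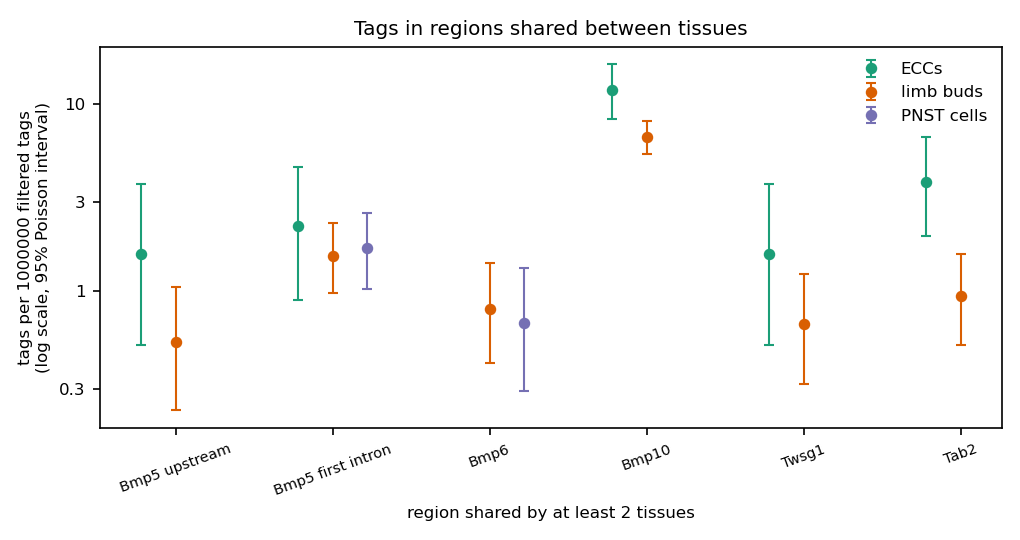
Tags per 1000000 filtered tags (log scale) in the 6 regions where peaks of the 42 genes overlap between tissues by at least 5%, with 95% exact Poisson intervals that cover counting error only. Intervals of the tissues overlap at both Bmp5 regions, Bmp6 and Twsg1, and are apart at Bmp10 and Tab2, where the called regions differ in length between the libraries.

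Sharing between tissues at the 42 genes was close to that at all genes. Of the 80 limb bud peaks, 5 were shared with ECCs (6.25%), beside 7.84% of all limb bud peaks within 50 Kb of a gene. Counted from the ECC list, 5 of 19 peaks were shared with limb buds (26.3%), beside 33.0%. Limb buds and PNST cells shared 2 of the 80 limb bud peaks (2.5%, beside 2.67%), and 1 of the 19 ECC peaks was shared with PNST cells (5.26%, beside 6.36%).

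Most of the limb bud peaks were weak relative to the ECC limit. Only 3 of 80 (3.75%, beside 5.08% of all limb bud peaks within 50 Kb) would reach 5 tags at the ECC depth, which were 2 at Bmp10 and 1 at Smad5. In PNST cells 1 of 10 would, the Bmp5 peak. All 19 ECC peaks lay above the limb bud and PNST minimum when scaled to those depths. This held for every ECC peak within 50 Kb of a gene. Of the 19, 14 had no overlap of 5% or more with a peak of the deeper lists. The other 5 (26.3%) had one, beside 33.9% of all ECC peaks within 50 Kb of a gene. Medians were 6 tags for ECC peaks, 10 for limb bud peaks and 8.5 for PNST peaks.

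**Figure D4:**
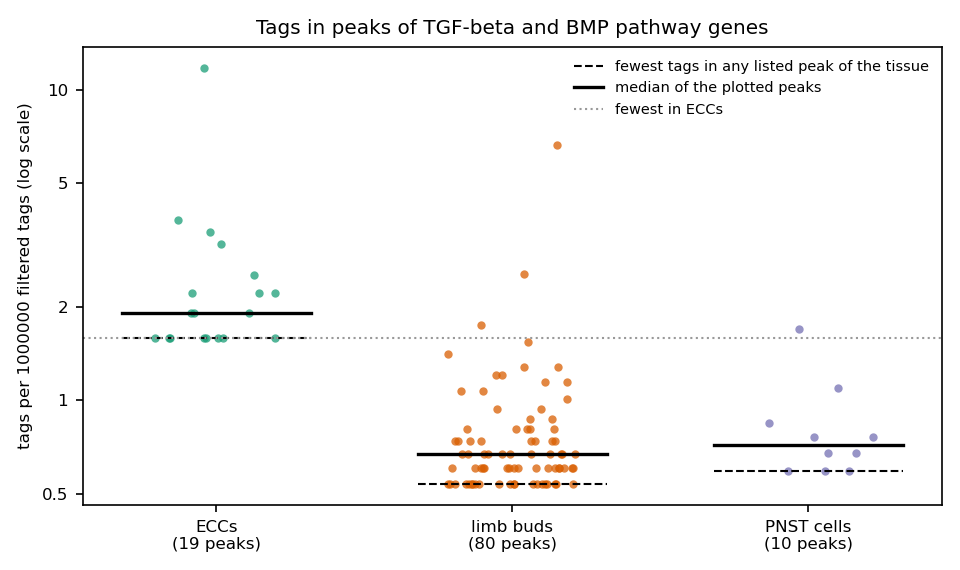
Tags per 1000000 filtered tags (log scale) of each peak of the 42 genes in ECCs (19 peaks), limb buds (80) and PNST cells (10), with the median (solid line), the fewest tags in any listed peak of the tissue (dashed line) and the ECC minimum of 1.59 drawn across (dotted line). All but 3 limb bud peaks and 1 PNST peak sit below the dotted line.

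By the GENCODE vM1 annotation of mm9, 51 of the 109 peaks had their summit inside the span of the gene, 27 beyond its 5′ end and 31 beyond its 3′ end. Summits were in an intron for 50 peaks, outside protein-coding transcripts for 58, in the 1 Kb upstream of a start site for 1 (the limb bud peak near Tgfb3) and in no exon. None was within 1 Kb of the 5′ end of its gene, 8 were within 5 Kb of a transcription start site of the gene, and 14 were over 50 Kb from all of them. The listed distance matched the lower edge of an exon of the gene within 2 bp for 67 peaks, so it is not in general a distance to the start site.

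E-boxes were present in 9 of 19 ECC peaks (47.4%, 95% Wilson interval 27.3 to 68.3), 54 of 80 limb bud peaks (67.5%, 56.6 to 76.8) and 5 of 10 PNST peaks (50%, 23.7 to 76.3). Of all peaks within 50 Kb of a gene, 53.0%, 55.6% and 51.8% contained an E-box. Within 50 bp of the summit the shares were 31.6%, 47.5% and 30.0%, beside 37.9%, 39.5% and 38.8%. CACATG, counted together with its reverse complement CATGTG, made up 31 of 89 E-boxes in limb bud peaks (34.8%). Its share was 15.8% in all limb bud peaks within 50 Kb of a gene. It was in 23 of the 80 peaks (28.8%, beside 11.9%). This E-box was singled out after its values were seen. In ECC peaks it made up 8 of 18 E-boxes, of which 6 were the tandem copies at Tab2. The limb bud peak in the same Tab2 repeat held 4 of the 31 in limb bud peaks.

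The peaks lay almost entirely in repeated sequence. The share of words of 32 bases that occur more than once in mm9 averaged 92.3% in the ECC peaks, 96.5% in the limb bud peaks and 93.2% in the PNST peaks, beside 88.7%, 94.6% and 91.5% in all peaks within 50 Kb of a gene. In windows of the same length 1 Kb to each side it averaged 27.9%, 26.5% and 19.3%. Every word was repeated in 10 ECC, 57 limb bud and 5 PNST peaks, and the median word of a median peak occurred 218, 574 and 500.5 times. Only the ECC peak in intron 1 of Tgfb2 had under 50% of its words repeated (46.5%), and in the next lowest of the ECC peaks, at Acvr2a (chosen after its value was seen), the share was 64.3%. In the limb bud and PNST peaks at Tgfb2 100% of the words were repeated, and the median word occurred 3128 and 8409 times, respectively. Of the shared regions, the Bmp5 intron 1 peaks had 83.3%, 92.5% and 78.4% of their words repeated in ECCs, limb buds and PNST cells. Tandem repeats, in which at least 75% of bases equal the base 1 period ahead, made up 7 of 19 ECC peaks (36.8%, beside 18.7%), 7 of 80 limb bud peaks (8.75%, beside 9.08%) and 1 of 10 PNST peaks (10.0%, beside 13.0%). The part of repeated sequence in the calling of these peaks was not tested, since reads and the control library were not analysed here.

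**Figure D5:**
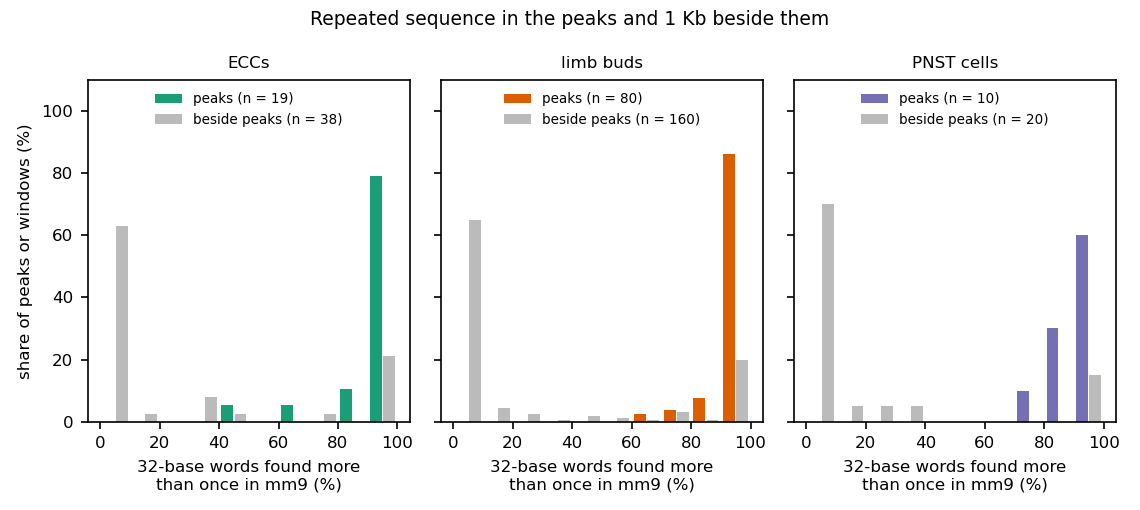
Share of peaks of the 42 genes (colored bars) and of same-length windows 1 Kb to each side (gray bars) by the percentage of their 32-base words found more than once in mm9, in bins of 10 percentage points, for ECCs, limb buds and PNST cells. Peaks gather in the highest bin and the windows beside them in the lowest.

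A further 62 genes of these pathways, such as other ligands, antagonists, Smad regulators and the Id target genes, had limb bud peaks at 31 genes (50%), ECC peaks at 15 (24.2%) and PNST peaks at 9 (14.5%), and 27 had none. Beside the protein-coding background of 53.9%, 22.5% and 14.6%, these shares were near the background in each tissue. ECC and limb bud peaks overlapped at Sostdc1 (a BMP and Wnt antagonist), Skil (a Smad corepressor), Map3k7 (the kinase TAK1, the partner of Tab2) and Gdf3 (a ligand). At Map3k7 the ECC peak held 12 tags and lay in sequence with 11 E-boxes, with 98.6% of its 32-base words repeated. Limb bud and PNST peaks overlapped at Id4, a helix-loop-helix gene that responds to BMPs, with 36 and 7 tags. Over all these overlapping peaks 81.9% to 100% of the 32-base words were repeated.

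Just inside the limit of 50 Kb were an ECC peak of Bmp5 (48804 bp), a limb bud peak of Bmp5 (48716 bp) and a PNST peak of Acvr1c (42575 bp). The first peaks beyond it were at Bmper (59231 bp), Chrd (51343 bp) and Smad1 (68971 bp), respectively, with 6, 9 and 7 tags.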

How the data were processed

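Twist1 ChIP-seq peak lists of ECCs, limb buds and PNST cells (1 pooled sample each) were analysed. The authors mapped single reads of 50 bp to mm9 (Eland and Bowtie are named) and ran MACS (version 1.4.2) on every sample by itself with a p-value of 1e-05 as the limit and 300 bp as band width, keeping at most 1 tag at each position. The deposited tags are raw counts per peak, which were not normalized. The deposited p-value is given as 10 times its −log10, and the deposited fold enrichment is a ratio to local background. The headers name no control file, while the methods name FVB/N genomic DNA, so the background behind the fold enrichment is not settled.

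The pathway genes, the further 62 genes and the measures were chosen with earlier results of these data known. Genes given in full were those with a shared region, with peaks in all 3 tissues, with the most peaks or tags in a tissue, or without any peak, and Tgfb2. Listed names and distances were used unchanged, with a maximum of 50 Kb. Sharing required that a peak of another tissue cover 5% or more of the counted peak (limb bud peaks counted for limb pairs, ECC peaks for ECC-PNST, PNST peaks for all 3 tissues). Positions used GENCODE vM1, whose build matches the lists. Words of 32 bases were counted on mm9 in both strands, E-boxes were read from the peak sequence, and tandem periods of 2 to 60 bp were searched. The overlap and word counts were checked on simulated data. Python 3.11.15, pandas 2.3.3, scipy 1.17.1 and pysam 0.24.0 were used. Scaled tags were tags divided by filtered tags, times 1000000.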

Additional observations from a re-analysis of the deposited data

How the results depend on the processing

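No paired analysis was possible because each tissue has 1 sample, which also leaves no replicate to omit, and no result comes from a test. Of 91 recomputed values, 37 stayed within 1.5 times the reported count or within the interval of the reported share, and 54 did not. Values are given for ECCs, limb buds and PNST cells in that order.

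Only peaks of p 1e-10 or smaller left 3, 5 and 1 genes with 3, 5 and 1 peaks, 1 gene in all 3 tissues, and 3 ECC-limb and 1 limb-PNST shared peaks, and the share with an E-box became 40.0% in limb buds and 0% in PNST cells, where 1 peak remained. A fold enrichment of at least 20 left 10, 7 and 3 genes, 1 gene in all 3 tissues, 12, 7 and 3 peaks, and 2 ECC-limb and 1 limb-PNST shared peaks. A limit of 10 Kb left 6, 19 and 3 genes, 2 in all 3 tissues, 7, 30 and 3 peaks, 1 ECC-limb shared peak and 0 in the other shared groups. The gene on the nearer side only left 9, 30 and 9 genes and 2 ECC-limb shared peaks, without Bmp10 and Twsg1 in ECCs, without Tgfb3, Bmp10, Acvrl1 and Twsg1 in limb buds, and without Fst in PNST cells. At the ECC depth and minimum, which every ECC peak meets by definition, 11 ECC genes, 2 limb bud genes (3 peaks) and 1 PNST gene (1 peak) remained. This setting left 0 genes in all 3 tissues, 1 ECC-limb shared peak, 0 limb-PNST peaks and 0 peaks shared by all 3. A reciprocal overlap of 50% left 0 ECC-PNST peaks and 0 shared by all 3, and a peak of the other tissue within 1 Kb gave 11 ECC-limb peaks. Restricting E-boxes to 50 bp around the summit gave 47.5% in limb buds. A restriction to peaks with under 50% of 32-base words repeated, chosen after seeing the data, left 1 ECC gene (Tgfb2, 1 peak), 0 limb bud and 0 PNST genes and peaks, and 0 shared peaks in every group. Distances to annotated start sites kept the counts within 1.5 times, adding Eng in ECCs and limb buds, and Bmp10, Bmpr1b and Gdf6 in PNST cells, and dropping Acvr1 and Twsg1 in ECCs, Smad1 and Bmper in limb buds, and Acvr1c and Smad2 in PNST cells. The alternative on soft-masked repeats was not run because the reference genome is not soft-masked.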
